A study of Sus scrofa with 23 samples.

Results

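The SLC1 genes SLC1A1 to SLC1A6 encode sodium-coupled carriers of glutamate, aspartate and small neutral amino acids. They were selected by symbol, and all 6 were found among the 26687 genes to which the transcripts of newborn pig kidney cortex were assigned. The estimated counts of each gene's transcripts were summed, and the genes were then described by the CFTR genotype on the labels. CFTR is the anion channel whose loss causes cystic fibrosis (CF).

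The family has a glutamate branch and a neutral amino acid branch. SLC1A1 (EAAT3, also EAAC1), SLC1A2 (EAAT2, GLT-1), SLC1A3 (EAAT1, GLAST) and SLC1A6 (EAAT4) bring glutamate and aspartate into cells together with sodium and protons, in exchange for potassium. SLC1A4 (ASCT1) and SLC1A5 (ASCT2) exchange alanine, serine, cysteine and, for SLC1A5, glutamine across the membrane. In the kidney, SLC1A1 sits in the apical membrane of the proximal tubule, where it recovers filtered glutamate and aspartate, and its inherited loss causes dicarboxylic aminoaciduria. SLC1A2 and SLC1A3 are best known from astrocytes and SLC1A6 from Purkinje cells of the cerebellum.

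Kidney cortex was sampled from 23 newborn pigs, and total RNA depleted of ribosomal RNA was sequenced. CF pigs carried CFTR-/- (n = 11), heterozygous pigs (HET) CFTR+/- (n = 6) and wild-type pigs (WT) CFTR+/+ (n = 6). The labels name no other treatment, and HET and WT pigs together form the non-CF group (n = 12) that the study's methods set against CF. Each library came from another pig, which the labels identify by a number, and neither sex nor litter is given. The question behind the comparison was whether renal amino acid transporter expression differs when CFTR is lost.

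Libraries held 32901281 to 52952273 estimated counts. CFTR RNA ran against the loss expected of a disrupted gene, from a median of 2.24 CPM (reads of a gene scaled to a library total by TMM normalization) in libraries labelled WT to 12.1 in HET and 20.7 in CF, so group names below are those of the labels. Kidney identity was checked with 7 proximal tubule markers, whose summed level was 7156 to 14292 CPM. The libraries also fell into a set of earlier-numbered pigs (1 to 6 and 12 to 18, n = 13) and a set of later-numbered pigs (7 to 11 and 19 to 23, n = 10), which were recognised from the expression data and are not named as batches on the labels. Both sets held all 3 genotypes. The library of WT pig 12 stood apart, with 21.6% of its counts on transcripts not typed as mRNA, against 12.4 to 15.5% in the other 22 libraries.

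In the pig genome Sscrofa11.1, SLC1A1 (gene 397003) lies at chr1:217366493-217441643, SLC1A2 (gene 100627068) at chr2:25603892-25771840 and SLC1A3 (gene 100516047) at chr16:21873691-21965315. SLC1A4 (gene 396600) lies at chr3:76938102-76970519, SLC1A5 (gene 641348) at chr6:52647432-52661464 and SLC1A6 (gene 100518296) at chr2:62601763-62623597. The 250 bases before 4 annotated transcript starts are printed from the RefSeq genome, because SLC1A5 has a pair of starts that share their downstream exons, SLC1A1 is the apical tubule carrier and SLC1A6 was the gene that differed between the pig-number sets. They are given 5′ to 3′ on the strand of the gene, with capitals marking matches on either strand to the TATA box (TATAAA), the CCAAT box, the GC box (GGGCGG), the half-site of estrogen-related receptors (AAGGTCA) or the core of an amino acid response element (TGATGNAA). The windows are chr1:217441644-217441893 (minus strand) for SLC1A1, chr6:52661465-52661714 (minus strand) for SLC1A5 X1, chr6:52658079-52658328 (minus strand, in an intron of X1) for SLC1A5 X2 and chr2:62601513-62601762 (plus strand) for SLC1A6.
SLC1A1: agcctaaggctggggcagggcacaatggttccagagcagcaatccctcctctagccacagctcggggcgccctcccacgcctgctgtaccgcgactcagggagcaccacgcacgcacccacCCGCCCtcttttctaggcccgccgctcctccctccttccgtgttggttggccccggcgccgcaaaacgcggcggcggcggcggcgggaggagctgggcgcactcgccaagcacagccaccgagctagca
SLC1A5 X1: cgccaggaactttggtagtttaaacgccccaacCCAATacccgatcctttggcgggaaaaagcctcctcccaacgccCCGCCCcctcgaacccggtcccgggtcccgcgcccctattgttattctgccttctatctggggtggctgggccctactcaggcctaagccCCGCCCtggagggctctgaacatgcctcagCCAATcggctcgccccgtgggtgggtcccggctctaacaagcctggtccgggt
SLC1A5 X2: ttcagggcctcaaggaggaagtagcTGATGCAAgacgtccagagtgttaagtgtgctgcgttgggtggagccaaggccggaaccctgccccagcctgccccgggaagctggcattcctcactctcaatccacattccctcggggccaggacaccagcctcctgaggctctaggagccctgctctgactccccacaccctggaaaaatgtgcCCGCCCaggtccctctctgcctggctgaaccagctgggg
SLC1A6: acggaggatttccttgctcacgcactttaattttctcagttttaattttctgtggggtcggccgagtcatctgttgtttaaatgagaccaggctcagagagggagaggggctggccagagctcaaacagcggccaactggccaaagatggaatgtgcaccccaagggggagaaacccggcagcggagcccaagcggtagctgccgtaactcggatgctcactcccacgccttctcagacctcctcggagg
The window of SLC1A5 X1 held 2 copies of CCAAT and 2 of GGGCGG on its opposite strand, whereas the window of X2 held 1 GGGCGG and the run TGATGCAA, 225 to 218 bases before the start. SLC1A1 had 1 GGGCGG and SLC1A6 none of the 5 motifs. Of 19531 windows of the same length before protein-coding genes, 45.9% held GGGCGG, 31.9% CCAAT, 9.77% TATAAA, 3.19% AAGGTCA and 2.41% TGATGNAA. GC content was 70.0% for SLC1A1, 64.0% and 62.4% for the SLC1A5 windows and 56.0% for SLC1A6, and the median window had 57.6%. These matches describe letters only and do not show binding.

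Per transcript length, the neutral exchanger SLC1A5 and the tubular glutamate carrier SLC1A1 dominated the family. SLC1A5 had a level of 65.2 ± 17.6 TPM, the length-scaled abundance of its transcripts (SD, n = 23) and SLC1A1 20.7 ± 5.31 TPM. SLC1A4 followed with 3.19 ± 1.04 TPM, SLC1A2 with 1.29 ± 0.217, SLC1A3 with 0.904 ± 0.215 and SLC1A6 with 0.463 ± 0.216. The remaining family gene, SLC1A7, had 0.0476 ± 0.0397 TPM, at most 18 counts in any library and at most 3 counts in 10 of 23 libraries.

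Each gene was above the next in this order in 23 of 23 pigs, except that SLC1A3 was above SLC1A6 in 21. The ranges over pigs of SLC1A5 and SLC1A1 overlapped, as did those of SLC1A2 with SLC1A3 and of SLC1A3 with SLC1A6. SLC1A4 stood clear of its neighbours, with SLC1A1 6.50-fold above it and SLC1A2 2.47-fold below it in mean TPM. The order was the same by counts per kilobase of the longest transcript.

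**Figure D1:**
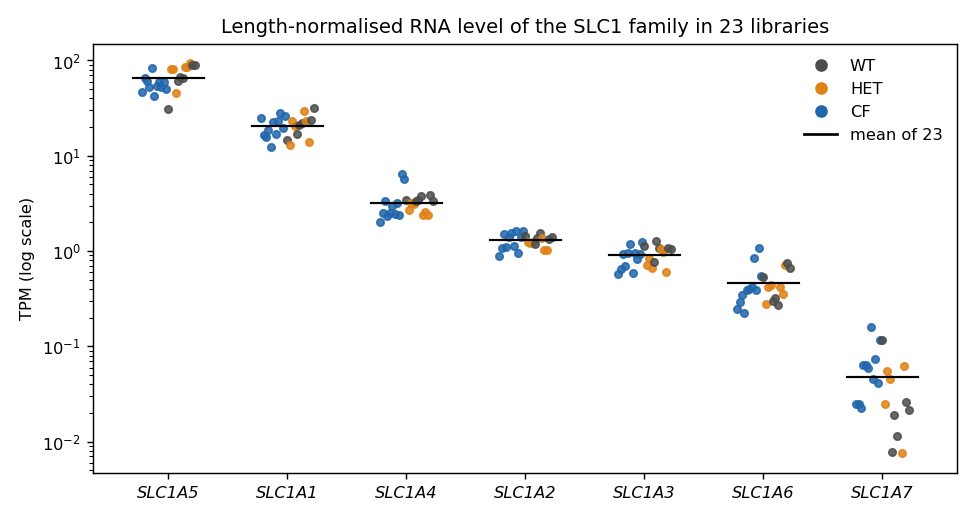
TPM of the SLC1 genes on a log axis, with one point per library coloured by genotype label and a line at the mean of 23 libraries. SLC1A5 (mean 65.2 TPM) and SLC1A1 (20.7 TPM) lie above the other genes, and the 1 library in which SLC1A7 is at 0 cannot be drawn on this axis.

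No SLC1 gene was called between CF and non-CF. At an adjusted p under 0.05 (edgeR quasi-likelihood test with Benjamini-Hochberg adjustment over 20921 genes), 0 of 6 passed, beside 0.349% of all genes tested, and DESeq2 and limma-voom also called 0. At an unadjusted p under 0.05 there was 1 (SLC1A5), beside 13.7% of all genes. The 0 of 6 was also the count for CF against WT (0.349% of all genes called), for HET against WT (0.00478%) and for CF against HET (0%), and DESeq2 called 0 in each. Unadjusted, 0 members passed in CF against WT (14.1% of all genes), 0 in HET against WT (7.99%) and 1, again SLC1A5, in CF against HET (9.89%). The pairwise comparisons share groups and are not independent.

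SLC1A1, the apical glutamate carrier, had nearly the same level under every label. The lowest, median and highest of its levels were 54.3, 71.8 and 110.4 CPM in WT, 50.4, 86.1 and 101.6 in HET and 47.3, 73.4 and 121.2 in CF. The ranges overlapped almost fully. The log2 fold change of CF against non-CF was 0.0041 (95% confidence interval -0.29 to 0.30, edgeR adjusted p = 0.995), so differences in either direction within that interval were not resolved. Its biological coefficient of variation was 0.245, above that of 75.4% of genes, and its locus is crossed on the opposite strand by LOC110256886, with 0 exonic bases in common. The libraries were made with a stranded kit.

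SLC1A2 and SLC1A3, carriers known mainly from glia, were low under every label. SLC1A2 had 10.7, 11.13 and 12.8 CPM (lowest, median, highest) in WT, 9.10, 11.0 and 12.01 in HET and 9.36, 11.2 and 12.8 in CF. Its coefficient of variation of 0.119 was the smallest of the 6 genes and its log2 fold change of CF against non-CF was 0.02 (95% interval -0.12 to 0.15, edgeR adjusted p = 0.958), the narrowest interval in the family.

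SLC1A3 was nominally highest in WT. Its levels were 3.34, 4.48 and 4.64 CPM in WT, 2.85, 3.65 and 4.36 in HET and 2.65, 3.81 and 4.83 in CF. All 6 HET libraries and 9 of 11 CF libraries were below the WT median, yet the groups overlapped. The log2 fold changes were -0.24 for HET against WT (95% interval -0.53 to 0.04, edgeR adjusted p = 0.679) and -0.20 for CF against WT (95% interval -0.45 to 0.05, edgeR adjusted p = 0.484), and neither passed.

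SLC1A6, the Purkinje cell carrier, was present at 22 to 96 counts per library. Its levels were 0.543, 0.976 and 1.60 CPM in WT, 0.660, 0.954 and 1.85 in HET and 0.588, 0.924 and 2.29 in CF. The 3 groups overlapped throughout. The log2 fold change of CF against non-CF was 0.02 with the widest interval in the family (-0.46 to 0.50, edgeR adjusted p = 0.986).

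**Figure D2:**
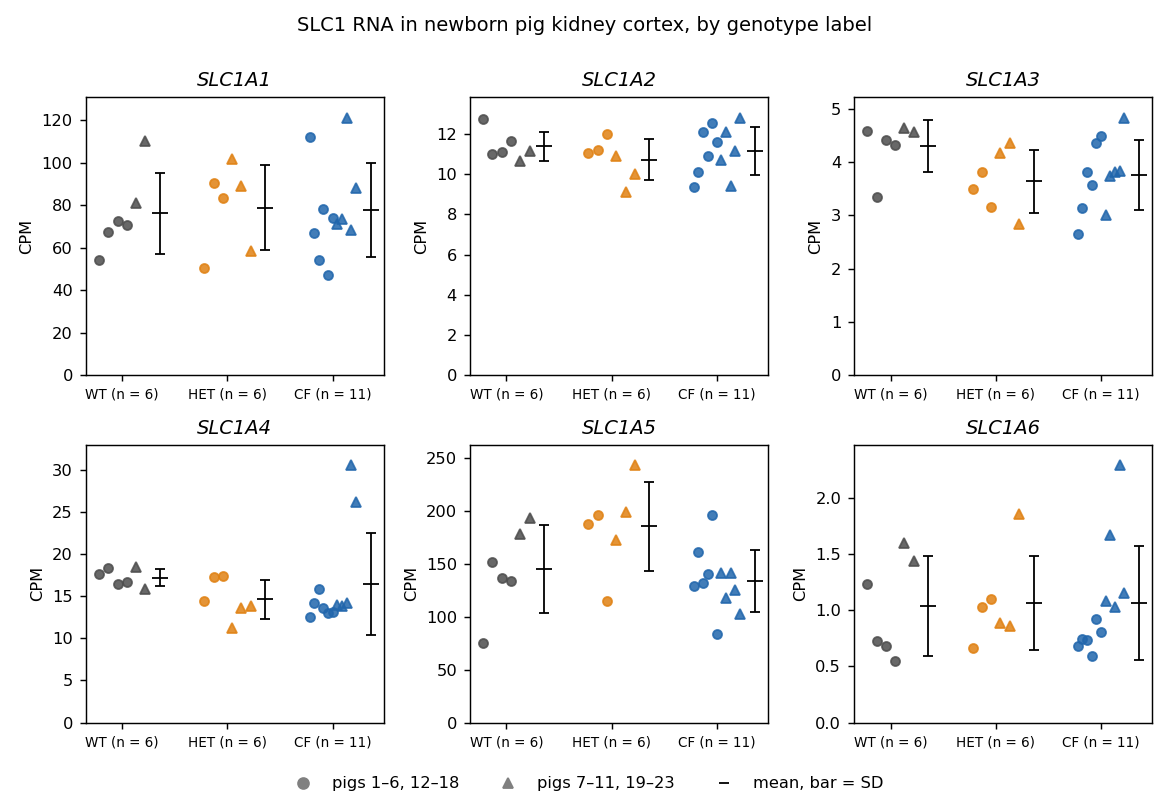
CPM of each SLC1 gene by genotype label on linear axes from 0, with one point per library (circles for pigs 1 to 6 and 12 to 18, triangles for pigs 7 to 11 and 19 to 23) and a bar for the mean and SD of each group. The groups overlap for all 6 genes, the 2 CF libraries at 30.5 and 26.2 CPM stand above the rest for SLC1A4, and the triangles lie mostly above the circles for SLC1A6.

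The neutral exchanger SLC1A5 had its lowest mean in CF and its highest in HET, at 134 ± 29.4 (SD, n = 11), 145 ± 41.6 (SD, n = 6) and 186 ± 42.0 CPM (SD, n = 6) for CF, WT and HET. Its levels were 75.01, 144 and 194 CPM (lowest, median, highest) in WT, 115.0, 192 and 243 in HET and 83.5, 132 and 196 in CF. In CF, 10 of 11 libraries were below the non-CF median, but none was below the lowest non-CF library, WT pig 12. The log2 fold change was -0.31 for CF against non-CF (SE 0.15, 95% interval -0.61 to -0.0021), with an unadjusted edgeR p of 0.0486 that did not pass after adjustment (0.361). The exact Mann-Whitney U test gave a p of 0.0792.

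SLC1A5 was also compared with each control genotype, and no contrast passed. CF was -0.47 against HET (95% interval -0.82 to -0.13, edgeR adjusted p = 0.364) and -0.12 against WT (95% interval -0.47 to 0.24, adjusted p = 0.814), while HET was 0.36 above WT (95% interval -0.04 to 0.76, adjusted p = 0.659), all on the log2 scale by edgeR. HET against WT was between 0.23 (without WT pig 12, adjusted p = 0.870) and 0.46 (without WT pig 23, adjusted p = 0.474) when 1 library was left out, again by edgeR. Leaving out 1 library moved CF against WT between -0.015 (without WT pig 23, adjusted p = 0.983) and -0.24 (without WT pig 12, adjusted p = 0.532, both by edgeR). Without WT pig 12, which had the lowest SLC1A5 level and the largest share of counts on transcripts not typed as mRNA, CF against non-CF was -0.37 (edgeR adjusted p = 0.163). That share, a measure chosen after the values were seen, had a Pearson r of -0.52 with SLC1A5 over 23 libraries. Without WT pig 12 r was -0.21, and it was -0.48 in later-numbered pigs, a set that does not hold that library. In earlier-numbered pigs r was -0.54 with WT pig 12 and 0.019 without it. The share was 13.04% to 14.5% in CF and 12.8% to 13.5% in non-CF libraries of the later set, and its part in the SLC1A5 values was not tested.

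For the other neutral exchanger, SLC1A4, 2 CF libraries were above all others. Its levels were 15.8, 17.1 and 18.4 CPM in WT, 11.2, 14.1 and 17.3 in HET and 12.6, 13.9 and 30.5 in CF. In CF, 9 of 11 libraries were below the lowest WT library, and CF pigs 10 and 11 (30.5 and 26.2 CPM) were above the highest. The count of 9 rests on a near tie, with CF pig 3 at 15.826 CPM and WT pig 23 at 15.832 CPM. In TPM CF pig 3 was above WT pig 23 (3.331 against 3.322). In HET, 4 of 6 libraries were also below the lowest WT library (log2 -0.24 against WT, edgeR adjusted p = 0.775), so the low values were not particular to CF. Over all genes tested, 2.06% had at least 9 CF libraries outside the WT range on the same side, and 0.0191% (4 genes) had 9 or more below it with 2 above. The pattern counted was set to match what was seen in SLC1A4 and has no test. The biological coefficient of variation of SLC1A4 was 0.234, above that of 72.8% of genes and below those of SLC1A1 (0.245) and SLC1A5 (0.248).

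The means differed by less than this spread. The log2 fold change of SLC1A4 in CF against non-CF was 0.05 (95% interval -0.24 to 0.33, edgeR adjusted p = 0.929), and CF against WT was -0.07 (95% interval -0.41 to 0.28, edgeR adjusted p = 0.907). Without CF pig 10 the value for CF against non-CF turned to -0.08 (edgeR adjusted p = 0.809), and without CF pig 11 to -0.04 (adjusted p = 0.939). Without both, an alternative added after seeing the data, it was -0.20, given with no test because these libraries were picked for their SLC1A4 level. Among 12 partner genes of neutral amino acid exchange and serine synthesis, 0 had those libraries as the highest 2, beside 0.522% of 25476 genes, so the 0 does not set the partners apart. ASNS, asparagine synthetase, and ATF4, a transcription factor of the amino acid response, came closest with ranks of 3 and 2 among 23 libraries, and were picked here for their ranks.

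**Figure D3:**
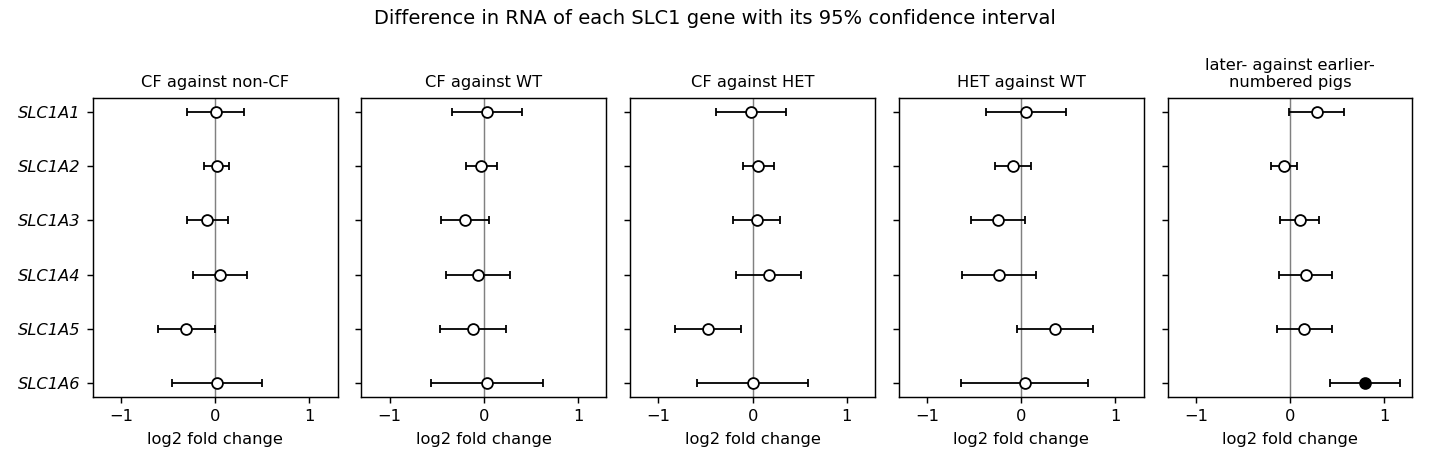
Log2 fold change of each SLC1 gene (points) with its 95% confidence interval (bars) in 5 comparisons, filled where the adjusted p is under 0.05. Only SLC1A6 between the pig-number sets is filled (0.79), and the interval of SLC1A5 lies below 0 in CF against non-CF and in CF against HET.

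Between the pig-number sets SLC1A6 was called, although its ranges overlapped. With the genotype label in the fit, 1 of 6 members, SLC1A6, was called between later- and earlier-numbered pigs, beside 9.91% of all genes tested, a share that does not set the family apart. SLC1A6 levels were 0.543, 0.735 and 1.23 CPM (lowest, median, highest) in earlier-numbered and 0.856, 1.295 and 2.29 CPM in later-numbered pigs. All 10 later libraries were above the earlier median, and 5 were above the highest earlier library. The log2 difference was 0.79 (SE 0.18, 95% interval 0.42 to 1.17, edgeR adjusted p = 0.0098). The sets were recognised from the expression of these same libraries, so the test is not independent of them, and what else differs between them is not given in the labels.

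The first exon of SLC1A6 shares 129 bases with LOC106508313 on the opposite strand, and whether reads were assigned by strand is not given in the sources used here. LOC106508313 had a median of 0.192 CPM in earlier-numbered and 0.294 CPM in later-numbered pigs. Its part in the SLC1A6 difference was not tested. Of the other members, SLC1A1 had the largest set difference (log2 0.28, 95% interval -0.01 to 0.57, edgeR adjusted p = 0.197). The other 4 lay between -0.07 and 0.17.

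The CF difference was also taken within each set for the neutral exchangers. In earlier-numbered pigs SLC1A4 had 12.6, 13.3 and 15.8 CPM in CF (n = 6) and 14.4, 17.2 and 18.3 in non-CF (n = 7), with 5 of 6 CF libraries below every non-CF library. The log2 difference was -0.29 (edgeR adjusted p = 0.270). In later-numbered pigs CF held 13.9, 14.2 and 30.5 CPM and non-CF 11.2, 13.9 and 18.4 (n = 5 each), with a log2 difference of 0.44 (edgeR adjusted p = 0.350). This positive value rested on CF pigs 10 and 11, and the other 3 CF libraries (13.9 to 14.2 CPM) lay within the non-CF range. Without both pigs it was -0.05, again with no test. The difference between the sets was 0.73 (95% interval 0.24 to 1.23, unadjusted p = 0.0054, edgeR adjusted p = 0.262) with all libraries, which did not pass, and 0.25 without these.

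SLC1A5 was called in the later set when all of its libraries were used. In later-numbered pigs the CF libraries had 102, 125.1 and 142 CPM and the non-CF libraries 172, 194 and 243, and all 5 CF libraries were below all 5 non-CF libraries. The log2 difference was -0.64 (edgeR adjusted p = 0.0137), which passed in that fit, as did 2.27% of the genes tested. Without CF pigs 10 and 11, which leaves 3 CF libraries, it was -0.56 and did not pass (edgeR adjusted p = 0.0624). Groups in that set did not overlap for 4.64% of all genes, with CF lower for 2.39%. In earlier-numbered pigs SLC1A5 had 83.5, 136 and 196 CPM in CF and 75.01, 137 and 196 in non-CF, with a log2 difference of -0.01 (edgeR adjusted p = 0.995). The difference between the sets was -0.63 (95% interval -1.19 to -0.08, unadjusted p = 0.0276, edgeR adjusted p = 0.409), so the effect was not shown to differ between them. The interaction was called for 0 of 6 members, beside 0.0191% of all genes, and 2 members had an unadjusted p under 0.05, beside 10.1%.

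Some marker lists differed between CF and non-CF in the later set, and those given below were picked for that. The remaining lists overlapped, such as the proximal tubule markers (9358 to 12781 CPM in CF and 8644 to 11938 CPM in non-CF). In that set r with SLC1A5 was -0.07 for proximal tubule, -0.10 for collecting duct and -0.06 for podocyte markers. For immune and adrenal markers r was 0.58 and -0.63. The 4 distal nephron markers (thick ascending limb and distal tubule), which include UMOD and SLC12A1, summed to 1169 to 1551 CPM in CF and 1548 to 2152 CPM in non-CF, and all 4 were detected in every library. Their summed level had an r of 0.80 with SLC1A5 over the 10 later libraries, whose CF and non-CF values of SLC1A5 lie apart, and of -0.22 in earlier-numbered pigs. The 4 endothelial markers summed to 378 to 489 CPM in CF and 504 to 549 CPM in non-CF, and the 5 glia and nerve markers to 6.82 to 8.30 and 4.08 to 5.97 CPM. Their part in the SLC1A5 difference was not tested.

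**Figure D4:**
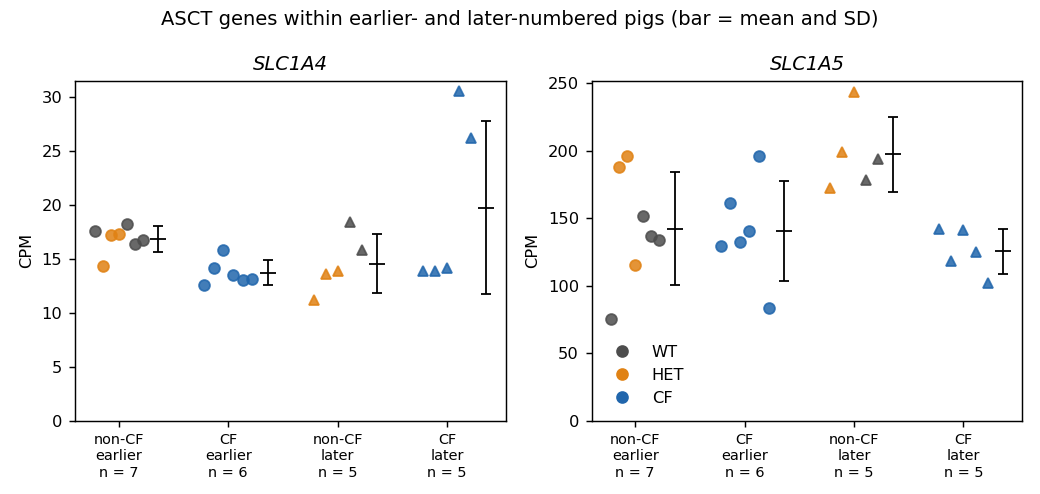
CPM of SLC1A4 and SLC1A5 in CF and non-CF libraries of earlier- and later-numbered pigs on linear axes from 0, with one point per library coloured by genotype label and a bar for the mean and SD. In the later set the 5 CF libraries for SLC1A5 (102 to 142 CPM) lie below the 5 non-CF libraries (172 to 243 CPM), while in the earlier set they overlap.

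Most members were read from a dominant transcript. For SLC1A5, variant X1 begins with an exon of 1223 bases and held 74.9% ± 5.31 (SD, n = 23) of the summed TPM, whereas X2 begins with an exon of 22 bases and held 25.1%. Both share 7 of their 8 exons, so the split rests on the first exon. For SLC1A4, variant X2 held 94.3% ± 2.53 and X1 5.74%. SLC1A2 was mainly variant X6 (91.2% ± 2.07), whose first exon has 5097 bases, and SLC1A3 mainly variant X1 (81.2% ± 8.18), which begins downstream of the GLAST variants and ends beyond them.

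The shares did not differ detectably between labels. For SLC1A5 X1 they were 75.8% in CF and 74.2% in non-CF, a difference of 1.57 percentage points. The differences were 0.303 points for SLC1A4 X2, -0.718 for SLC1A2 X6 and 0.697 for SLC1A3 X1, and all 4 had an adjusted p of 0.845 (two-sided permutation test with 100000 resamples). SLC1A1 and SLC1A6 have 1 annotated transcript each.

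Genes that act beside the carriers were counted from 2 lists chosen by function, with earlier results of these data known. Their counts here and below are therefore not independent of the data. Of 19 genes of glutamate handling (cystine exchangers, enzymes such as transaminases, glutathione synthesis and scaffold proteins), 6 were higher and 13 lower in CF than in non-CF. At an unadjusted p under 0.05 there was 1 (13.7% of all genes), and 0 were called by edgeR (0.349% of all genes). Their median log2 fold change was -0.05, and the median of all genes was -0.00052. Against WT alone 11 were higher and 8 lower in CF (median 0.03), and against HET alone 5 were higher and 14 lower (median -0.08). Among those with the smallest p values for CF against non-CF were SLC7A13, the transporter of aspartate and cystine in the proximal tubule (0.28, edgeR adjusted p = 0.469), and GOT2, the mitochondrial aspartate transaminase (-0.12, adjusted p = 0.499), again by edgeR.

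Of 12 neutral amino acid partners, 8 were higher and 4 lower in CF, with a median log2 fold change of 0.05. At an unadjusted p under 0.05 there were 3 (13.7% of all genes), and 0 were called by edgeR (0.349% of all genes). SLC7A5, the large neutral amino acid exchanger LAT1, was 0.89 higher (95% interval 0.45 to 1.34, edgeR adjusted p = 0.0567). SLC38A1, a sodium-coupled glutamine carrier, was 0.21 higher (edgeR adjusted p = 0.109), and SLC6A19, the apical neutral carrier B0AT1, was -0.59 (edgeR adjusted p = 0.198). None of the 3 passed. In the interaction of CF with pig-number set, 9 of these 12 were positive and 3 negative. At an unadjusted p under 0.05 there were 6 (10.1% of all genes), and 0 were called by edgeR (0.0191% of all genes). The smallest p of the 6 was that of SLC38A2, a sodium-coupled neutral amino acid carrier, with a negative value (-0.53, edgeR adjusted p = 0.157), and the other 5 were positive.

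Between the pig-number sets, 4 of the 19 glutamate-handling genes were called, all higher in later-numbered pigs, and 0 of the 12 neutral partners (4 unadjusted, beside 26.7% of all genes). The 4 were SLC7A13 (log2 0.49, edgeR adjusted p = 0.0237), the scaffold genes SLC9A3R1 (0.38, adjusted p = 0.0357) and PDZK1 (0.30, adjusted p = 0.0372), and GGT1, gamma-glutamyltransferase (0.52, adjusted p = 0.0418). Of all genes tested, 5.42% were called higher in later-numbered pigs. Proximal tubule markers had medians of 9368 CPM in earlier- and 10102 CPM in later-numbered pigs, and stroma markers 3197 and 2458 CPM. The ranges overlapped, these lists were picked among the marker lists, and their part in the set differences was not tested.

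No pair of members was correlated past the threshold in CPM, although SLC1A2 with SLC1A3 (r = 0.75, adjusted permutation p = 0.0024) and 3 pairs with SLC1A4 passed in TPM. Among 81 relations (15 pairs of members and 66 of a member with the summed level of a marker list), 0 of the 15 pairs passed and 2 relations with markers did. SLC1A1 followed the 7 proximal tubule markers, which include the endocytic receptors LRP2 and CUBN (Pearson r = 0.66, permutation p = 0.00067, adjusted 0.027, n = 23), but Spearman's rho was 0.50 (permutation p = 0.0171, adjusted 0.198). In TPM rho was 0.75 (permutation p = 7e-05, adjusted 0.0019). Without the 2 libraries farthest from the SLC1A1 median r in CPM was 0.73, and it was 0.65 in earlier- and 0.58 in later-numbered pigs. In cortex RNA, fewer proximal tubule cells and less RNA per cell cannot be told apart.

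SLC1A2 followed 4 adrenal markers (r = 0.74, permutation p = 4e-05, adjusted 0.0032, and rho = 0.81, permutation p = 1e-05, the smallest the resamples can give, adjusted 0.00081, n = 23). Without the 2 farthest libraries r was 0.78, and it was 0.84 in earlier- and 0.60 in later-numbered pigs. The adrenal list summed to 6.66 to 11.6 CPM, of which CYP11A1, the first enzyme of steroid synthesis, supplied a mean of 6.55 and STAR, the mitochondrial cholesterol carrier, 2.38. The defining genes CYP17A1 and NR5A1 were near 0, at means of 0.104 and 0.0573 CPM. In TPM the adrenal list also passed with SLC1A3 (r = 0.74, adjusted permutation p = 0.0035) and SLC1A4 (r = 0.61, adjusted permutation p = 0.0199), so the relation is not shown to be particular to SLC1A2. Nephron progenitor markers passed there with SLC1A2 (r = 0.70) and SLC1A3 (r = 0.65), podocyte markers with SLC1A2 (r = 0.56) and endothelial markers with SLC1A3 (r = 0.62). The share of counts on transcripts not typed as mRNA had an r of 0.53 with SLC1A2 and -0.53 with SLC1A1 (0.53 and -0.61 without WT pig 12), and its part in these relations was not tested.

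The 3 genes most like each member were found by Pearson r of log2 CPM over 23 libraries among 20920 other genes, as a description with no test. For SLC1A1 they were PATJ (0.83), NIT1 (0.82) and LIPA (0.82), which encode a cell polarity scaffold, a nitrilase-family enzyme and lysosomal acid lipase. For SLC1A5 they were ESRRA (0.86), an orphan nuclear receptor, STARD7 (0.84), a lipid transfer protein, and LOC100515741 (0.81). For SLC1A4 they included MUTYH (0.76), a DNA glycosylase, and LOC102157424 (0.73). The genes shared libraries, depth and scaling, and a high maximum is usual when so many are searched.

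SLC1A2 was most like SPATA17, LOC106504178 and LOC100738387 (0.85 to 0.86), and SLC1A3 most like LOC110261130, LOC102158973 and LOC100623270 (0.82 to 0.84). SLC1A6 was most like SLC30A10 (0.74), a manganese exporter, MBLAC2 (0.72) and NFASC (0.71), an adhesion protein of nerve. After each set was centred on its own mean these fell to 0.55, 0.41 and 0.53, while the value for SLC1A5 with ESRRA was again 0.86.

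**Figure D5:**
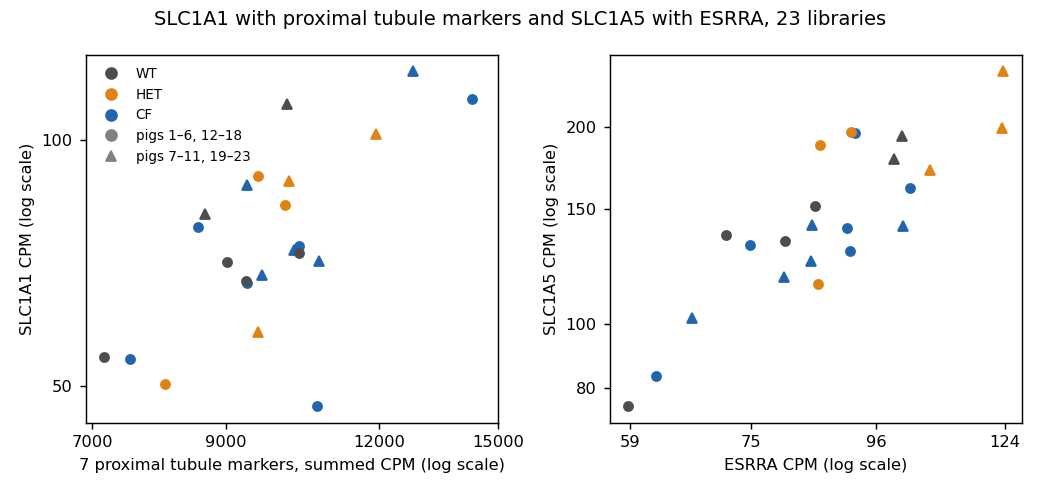
SLC1A1 against the summed CPM of 7 proximal tubule markers (left) and SLC1A5 against ESRRA (right), all on log axes, with one point per library coloured by genotype label and shaped by pig-number set. SLC1A1 rises with the markers (r = 0.66), with 1 CF library at 47.3 CPM below the trend, and SLC1A5 rises with ESRRA (r = 0.86) in both sets.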

How the data were processed

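Total RNA of kidney cortex from 23 newborn pigs was sequenced with a stranded kit after ribosomal RNA depletion. The authors pseudoaligned the reads to Sscrofa11.1 with kallisto and deposited, per transcript, an estimated count (not normalized) and a TPM value (scaled for effective length and to a constant sum). The strand setting and annotation release are not given in the sources used here.

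Estimated counts of 77689 transcripts were summed to 26687 gene symbols and rounded. edgeR 4.0.16 on R 4.3.3 (TMM, filterByExpr, quasi-likelihood test, Benjamini-Hochberg adjustment) compared 11 CF with 12 non-CF libraries over 20921 genes. A fit of 3 genotypes gave pairwise contrasts, a fit with genotype gave the pig-number sets, and an interaction term compared the CF effect between sets. Calls used an adjusted p under 0.05. Printed CPM carry no prior count, and log2 CPM for correlations used a prior count of 2. A limit of 3 counts equals 0.0567 to 0.0912 CPM by library and covers counting error only. Correlations and transcript shares were tested with 100000 permutations in Python 3.11.15.

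Genes named are the 6 members, SLC1A7, CFTR, the 3 most alike per member, and for each partner list the genes called or otherwise the 3 with the smallest p; 2 genes that these rules name are not reported here. The members and all lists, and the motifs, were chosen with earlier results of these data known. Alternatives covered DESeq2 1.42.0, limma-voom (limma 3.58.1), other normalizations, no filter, WT or HET alone as control, the sets, TPM with a pseudocount of 0.1 (0.01 for correlations), the exact Mann-Whitney U test and leaving out single libraries. The edgeR, DESeq2 and limma-voom fits were also run on simulated counts with known changes, and the outcome is not reported here. How well they recover differences as small as those of the SLC1 genes is therefore not shown. Comparisons deposited by the authors were not used.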

Additional observations from a re-analysis of the deposited data

Results flagged for a closer look

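Within groups of 6 libraries, the highest or lowest library was compared with the gap to its nearest neighbour (Dixon's criterion, 20 groups of 6 genes' CPM levels and of 4 transcript shares by label). Chance alone passes about 1 group in 20. SLC1A3 in WT pig 16 was far below the other WT libraries, at 3.34 CPM. SLC1A6 in HET pig 21 was far above the other HET libraries, at 1.85 CPM. The share of SLC1A2 variant X6 in WT pig 12 was 88.6%, below the other WT libraries. The share of SLC1A3 variant X1 in HET pig 13 was 90.7%, above the other HET libraries. CF holds more than 10 libraries and was not examined in this way.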

How the results depend on the processing

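Other settings numbered 14 for CF against non-CF, 4 for each pairwise contrast and for the pig-number sets, and 1 for the interaction, and each of 23 libraries was left out in all of these. The count of SLC1 genes called was the same in these runs, with 1 exception: 1 gene (SLC1A5) was called for CF against non-CF in later-numbered pigs alone, and not without CF pigs 10 and 11. The SLC1A6 difference between the sets stayed between 0.67 and 0.86 (edgeR adjusted p of 0.0072 to 0.026) when each library was left out, and SLC1A5 in CF against non-CF stayed negative, between -0.37 and -0.24. With TPM in place of CPM, 12 relations passed instead of 2 (both of those among them), and the cause was not tested. The order of levels and the signs of the transcript shares did not change.

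Sign changes were limited, among 186 fold changes under other settings, to 26 that were not called. For CF against non-CF these were SLC1A1 with upper-quartile normalization (-0.020), limma-voom (-0.0077), HET alone (-0.022), the set as a term (-0.0015), later-numbered pigs alone (-0.054) and TPM (-0.033). SLC1A2 changed with WT alone (-0.029), earlier-numbered pigs alone (-0.050) and TPM (-0.011), and SLC1A3 with HET alone (0.044). SLC1A4 changed with limma-voom (-0.011), WT alone (-0.065), earlier-numbered pigs alone (-0.29) and TPM (-0.027). SLC1A6 changed with the set as a term (-0.046), earlier-numbered pigs alone (-0.19) and TPM (-0.016). Leaving out CF pigs 10 and 11 together, added after seeing the data, changed SLC1A1 (-0.00040), SLC1A2 (-0.0086), SLC1A4 (-0.20) and SLC1A6 (-0.19) over all pigs, and SLC1A4 (-0.053) and SLC1A6 (-0.066) in later-numbered pigs alone. In the pairwise contrasts SLC1A6 changed with the set as a term, to -0.064 for CF against WT and -0.037 for HET against WT, and with no filter to 0.0013 for CF against HET.

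Leaving out each library changed the sign in 66 of 828 fold changes. For CF against non-CF the ranges were -0.079 to 0.059 for SLC1A1, -0.0085 to 0.038 for SLC1A2, -0.082 to 0.082 for SLC1A4 and -0.16 to 0.12 for SLC1A6. For CF against WT they were -0.054 to 0.16 (SLC1A1), -0.048 to 0.012 (SLC1A2) and -0.14 to 0.20 (SLC1A6), and for HET against WT -0.037 to 0.19 (SLC1A1) and -0.19 to 0.20 (SLC1A6). For CF against HET they were -0.12 to 0.066 (SLC1A1), -0.020 to 0.10 (SLC1A3) and -0.18 to 0.23 (SLC1A6), and for the interaction, where leaving out libraries was added after seeing the data, -0.27 to 0.062 (SLC1A1) and -0.12 to 0.054 (SLC1A3).

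No analysis paired by litter was possible because the labels give no litter. Libraries of littermates, if present, could not be told from the others. The depth limits SLC1A6, which had as few as 22 counts in a library, and SLC1A7, which was not tested.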
